A study of Mus musculus with 20 samples.

Results

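The 9 genes described here are the receptors that bind glucocorticoid hormones in the brain and 7 genes that these receptors are known to switch on or off. They are Nr3c1, Nr3c2, Fkbp5, Sgk1, Tsc22d3, Zbtb16, Pdk4, Cdkn1a and Hif3a. They were taken by gene name from the table of deposited counts, in which all 9 were present among 25190 genes. Each of the 9 was above the floor of 3 counts in all 20 libraries.

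The study asked what small RNAs (sRNAs) from the hippocampus of people with schizophrenia do in the mouse brain. Bulk RNA was sequenced from the hippocampus of wild-type C57BL/6JOlaHsd males aged 4 months, with 5 libraries in each of 4 groups. The Vehicle group was infused with artificial cerebrospinal fluid alone. The Control group was given a pool of sRNAs from the post-mortem hippocampus of unaffected people, and the groups Pool 1 and Pool 2 were each given the sRNAs of a different set of patients, also as a pool. All groups had cannulas in dorsal CA1, infusions on both sides and the same behavioural tests, and tissue was taken 24 hours after the last test. The donor RNA is a mixture, so no single small RNA can be tied to a value, and the surgery, the handling and the testing were common to all 4 groups. The sample labels name hippocampal tissue and the series text names CA1. The labels do not say that libraries came from separate mice, so p-values measure the spread between these libraries.

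Glucocorticoids are steroid hormones of the adrenal gland that rise with stress and with the time of day. They enter cells and bind the mineralocorticoid receptor, which holds the hormone tightly and is abundant in hippocampal neurons, and the glucocorticoid receptor, which is filled mainly when hormone is high. The bound receptors move to the nucleus, bind DNA and change transcription, and genes such as Fkbp5, Sgk1 and Tsc22d3 are widely used as readouts of that activity.

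None of the 9 genes was called different in any of the 4 comparisons. A gene was called when its log2 fold change reached 0.3 in either direction and its unadjusted p-value was under 0.05 in edgeR's quasi-likelihood test, the threshold that the study used, with all genes and all 20 libraries in 1 fit. The count was 0 of 9 in Control against Vehicle, where 5.1% of all genes were called, and 0 of 9 in Pool 1 against Control, where 3.48% were called. It was also 0 of 9 in Pool 2 against Control, where 6.22% of all genes were called, and 0 of 9 in Pool 2 against Pool 1, where 6.82% were called. For any difference among the 4 groups, 0 of 9 genes had an unadjusted p-value under 0.05 in edgeR, against 7.86% of all genes. DESeq2 also called 0 of 9 genes in each of these comparisons. The 2 comparisons with Control share the Control libraries.

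By unadjusted p-value alone, the count in edgeR was 0 of 9 in Control against Vehicle (6.64% of all genes), in Pool 1 against Control (5.22%) and in Pool 2 against Control (7.7%). It was 1 of 9 in Pool 2 against Pool 1 (8.52% of all genes), and that gene was Nr3c2. The smallest adjusted p-value of the 9 genes was 0.564 (edgeR, Benjamini-Hochberg over all genes). An exact permutation test of each gene in each comparison gave 0 of 36 p-values under 0.05, the smallest being 0.0556, where the smallest possible with 5 libraries against 5 is 0.00794. In no gene did 2 groups separate without overlap, a pattern seen in 0.607% of all genes for Control against Vehicle, 0.861% for Pool 1 against Control, 1.05% for Pool 2 against Control and 1.41% for Pool 2 against Pool 1.

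How large a change these data could have missed is given by the confidence intervals. Of the 36 intervals at 95% (9 genes in 4 comparisons), 35 lay within a 2-fold change in either direction, and the exception was Hif3a in Pool 1 against Control. Only 9 of the 36 lay wholly within the threshold of 0.3 on the log2 scale. The interval reached from 0.21 (Fkbp5) to 0.60 (Hif3a) on the log2 scale to either side of the estimate.

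**Figure D1:**
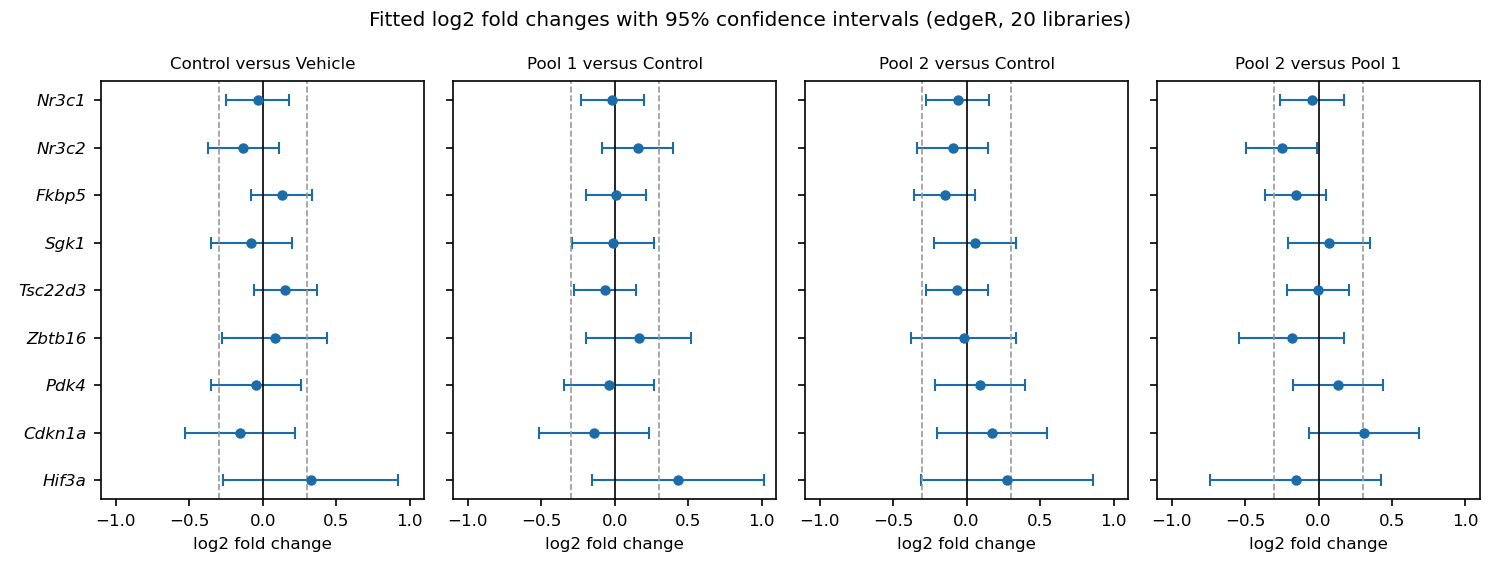
Fitted log2 fold change of each gene (x axis) in the 4 comparisons, with points for the estimate, bars for the 95% confidence interval from edgeR over 20 libraries, and dashed lines at a log2 fold change of 0.3 in either direction. The bars of 35 of the 36 estimates cross 0, the one that does not is Nr3c2 in Pool 2 versus Pool 1, and Hif3a has the widest bars.

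The 2 receptor genes had the highest levels of the set per length. Nr3c2, on chromosome 8 (GRCm38, 76899442 to 77245012, plus strand), encodes the mineralocorticoid receptor. It had the highest level of the 9 genes, with a mean of 248.7 CPM (counts scaled to the size of the library), rank 701 of the 25190 genes, and 38.4 CPM per kilobase of exon. Nr3c1, on chromosome 18 (39410545 to 39519421, minus strand), encodes the glucocorticoid receptor and was second, with 13.8 CPM per kilobase.

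Nr3c2 was measured at 209, 281, 294, 273 and 256 CPM in the Vehicle libraries and at 203, 219, 259, 290.1 and 228 CPM in the Control libraries. It was at 239, 299, 289, 270.0 and 240.1 CPM in Pool 1 and at 172, 219, 247, 219.6 and 267 CPM in Pool 2. In group means the order was Pool 1 (267.5 ± 27.5 CPM, SD, n = 5), Vehicle (263 ± 33.0), Control (239.9 ± 34.7) and Pool 2 (225 ± 35.6), with neighbours in that order closer than their SDs. The lowest library of all 20 was Pool 2 replicate 1, and 3 of the 5 Pool 2 libraries lay below every Pool 1 library.

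Between the pools, Nr3c2 was lower in Pool 2 by a log2 fold change of −0.25 ± 0.12 (SE), with an interval of −0.49 to −0.01. The edgeR p-value was 0.0423 unadjusted and 0.564 after Benjamini-Hochberg adjustment, and the size was under the threshold of 0.3. The exact permutation test of the same 5 against 5 libraries gave a p-value of 0.0794. Without Pool 2 replicate 1 the log2 fold change was −0.17 (edgeR, unadjusted p = 0.148). Set against Control, the log2 fold change of Nr3c2 was 0.16 in Pool 1 (interval −0.08 to 0.40) and −0.09 in Pool 2 (interval −0.33 to 0.15), and Control against Vehicle was −0.13 (interval −0.37 to 0.11).

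Genes outside the set also differed between the pools. All 8 interferon-response genes listed were called higher in Pool 2 against Control and against Pool 1. Their summed level was 143 CPM in Pool 2 replicate 1. It was 11.8 to 30.04 CPM in Pool 1, 14.4 to 24.7 CPM in Control and 15.2 to 39.8 CPM in Vehicle. Without Pool 2 replicate 1, 2 of the 8 were called higher in each of these comparisons of Pool 2. The median log2 fold change of the 8 then went from 1.23 to 0.50 against Control and from 1.36 to 0.58 against Pool 1. In Control against Vehicle, with all libraries, their median was −0.58, with 0 of 8 above 0. There 1 of the 8, Rsad2, was called lower, where 5.1% of all genes were called. Of 6 microglial markers, 4 were called higher in Pool 2 than in Pool 1 and 2 higher than in Control, and without Pool 2 replicate 1, their highest library, edgeR called 0 in both, with 0 at an unadjusted p-value under 0.05.

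The markers of brain regions did not depend on that library in the same way. All 5 thalamus markers were called higher in Pool 2 than in Pool 1, with sums of 95.5 to 408 CPM against 72.2 to 105 CPM, and their highest library was Pool 2 replicate 4. Without Pool 2 replicate 1 all 5 were still called, with a median log2 fold change of 1.46 against 1.29 with it, and against Control the number called was 4 of 5 in place of 2. Of the 5 markers of CA1 pyramidal neurons, edgeR called 0 in the 4 pairwise comparisons, with 0 at an unadjusted p-value under 0.05, and DESeq2 called 1, Fibcd1, lower in Pool 2 than in Pool 1. In Pool 1 against Control and in Pool 2 against Pool 1, their log2 fold changes had the same sign as that of Nr3c2. The medians were 0.31 (5 of 5 above 0) and −0.41 (0 of 5 above 0), and the latter was −0.48 without Pool 2 replicate 1. The 5 dentate granule markers had the other sign, with medians of −0.24 (0 of 5 above 0) and 0.33 (5 of 5 above 0). Those of CA2 and CA3 had medians of −0.09 and −0.08, with 1 of 5 above 0 in each. These 2 comparisons share the Pool 1 libraries. Across the 20 libraries, with group means removed, Nr3c2 had a Pearson r of 0.04 with the mean of the CA1 markers. Without Pool 2 replicate 1 that r was 0.20. Among the marker lists its largest r in size was −0.66, with blood, and −0.515 without that library. Next were microglia (−0.56, and −0.27 without it) and endothelial cells (−0.54 and −0.43), all as descriptions. The part of these marker differences in the Nr3c2 value was not tested, and in bulk tissue fewer cells of a type and less RNA per cell cannot be told apart.

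Nr3c1 was measured at 112, 109, 124, 105 and 96.1 CPM in Vehicle and at 87.3, 97.3, 110.2, 111 and 129 CPM in Control. It was at 98.8, 118, 107, 116 and 89.4 CPM in Pool 1 and at 91.4, 100.05, 92.4, 115 and 114 CPM in Pool 2. The 4 groups overlapped across nearly their whole range, and the highest and lowest of the 20 libraries were both Control libraries. The group means ran from 103 ± 11.4 CPM in Pool 2 to 109 ± 10.4 CPM in Vehicle (SD, n = 5), a spread of 1.07-fold. The log2 fold changes were −0.02 in Pool 1 against Control (interval −0.23 to 0.20), −0.06 in Pool 2 against Control (−0.27 to 0.15), −0.03 in Control against Vehicle (−0.25 to 0.18) and −0.04 in Pool 2 against Pool 1 (−0.26 to 0.17).

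The balance of the 2 receptors was computed in each library as Nr3c2 over Nr3c1, per kilobase of exon. It was 2.86 ± 0.391 in Vehicle, 2.69 ± 0.365 in Control, 3.01 ± 0.196 in Pool 1 and 2.61 ± 0.386 in Pool 2 (SD, n = 5 libraries each). The lowest library was at 2.10 and the highest at 3.22, so more mRNA of the mineralocorticoid receptor per length was present in all 20 libraries. Exact two-sided permutation tests of the ratio gave unadjusted p-values of 0.0714 for Pool 2 against Pool 1, 0.0873 for Pool 1 against Control, 0.786 for Pool 2 against Control and 0.468 for Control against Vehicle. None of these 4 p-values was under 0.05.

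**Figure D2:**
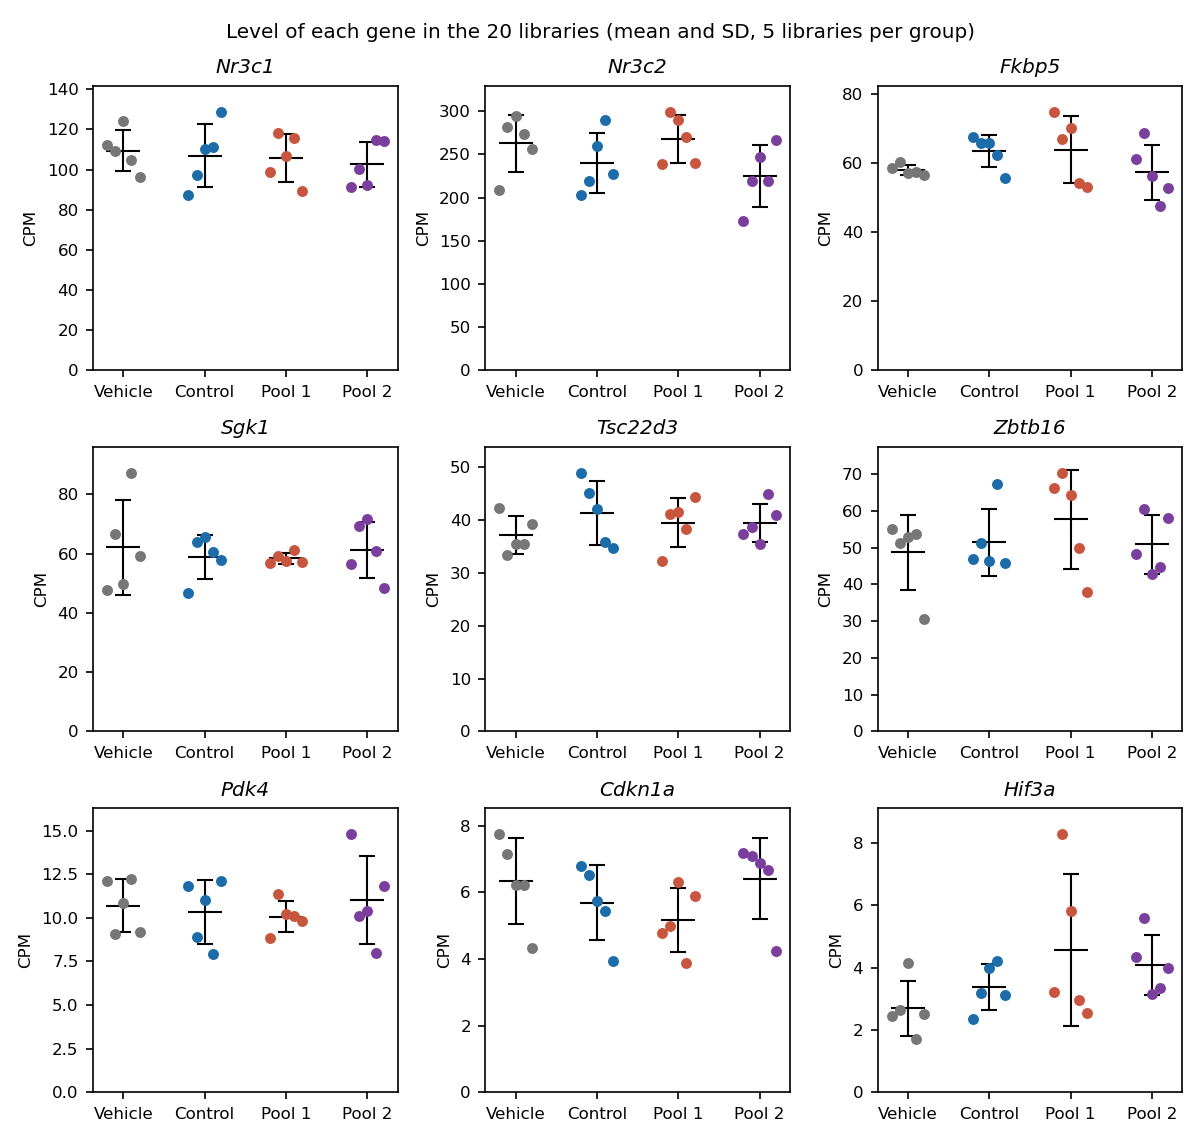
Level (CPM) of the 9 genes in each of the 20 libraries, by group, with 1 point per library and a black mean with its SD (n = 5), each y axis starting at 0. The groups overlap in every panel, and single libraries stand out for Hif3a in Pool 1 (8.29 CPM), Sgk1 in Vehicle (87.3 CPM) and Zbtb16 in Vehicle (30.5 CPM).

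Among the responsive genes, Fkbp5 lay at the centre of the feedback on the receptor. Its protein is a cochaperone that lowers the receptor's affinity for hormone, and its transcription is raised by the receptor. Fkbp5 (chromosome 17, 28399094 to 28517527, minus strand) was measured at 58.4, 60.2, 57.2, 57.2 and 56.6 CPM in Vehicle and at 67.6, 65.8, 65.6, 62.3 and 55.7 CPM in Control. It was at 74.7, 66.9, 70.0, 54.2 and 52.9 CPM in Pool 1 and at 61.2, 68.5, 56.2, 47.5 and 52.7 CPM in Pool 2. The Vehicle libraries were tightly grouped, with an SD of 1.44 CPM, while the other groups had SDs of 4.72 to 9.69 CPM. Of the 5 Control libraries, 4 lay above every Vehicle library and 1 lay below them all.

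The log2 fold change of Fkbp5 in Control against Vehicle was 0.13 ± 0.10 (SE), with an interval of −0.08 to 0.34. The exact permutation test gave 0.0556, the smallest of the 36 p-values of the set, and edgeR gave an unadjusted p-value of 0.205. In Pool 1 against Control the log2 fold change was 0.0084 (interval −0.20 to 0.21), in Pool 2 against Control −0.15 (−0.35 to 0.06) and in Pool 2 against Pool 1 −0.16 (−0.36 to 0.05).

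Sgk1 and Tsc22d3 are direct targets of the receptor in many tissues. Sgk1 encodes a kinase that controls ion channels and transporters, and Tsc22d3 encodes a leucine zipper protein that restrains inflammatory signalling. RefSeq promoter windows (GRCm38.p6, 250 bases before to 50 after each start) were at hand for 7 of the 9 genes, not for Nr3c1 and Zbtb16, with 15 windows in all. They were searched on both strands for the hexamer AGAACA to which the receptors bind, and for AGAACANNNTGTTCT, which holds 2 hexamers facing each other. The windows of Sgk1 and Tsc22d3 are shown because they were the only ones of the set with a match, with the matches in capitals, and the strand is that of the gene.

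Sgk1, chr10:21993640-21993889, plus strand: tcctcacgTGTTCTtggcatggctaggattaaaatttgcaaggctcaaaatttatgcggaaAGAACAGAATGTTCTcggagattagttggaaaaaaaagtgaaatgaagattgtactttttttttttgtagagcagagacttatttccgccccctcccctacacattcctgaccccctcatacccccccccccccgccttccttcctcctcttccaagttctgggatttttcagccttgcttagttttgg
Tsc22d3, chrX:140600673-140600772, minus strand: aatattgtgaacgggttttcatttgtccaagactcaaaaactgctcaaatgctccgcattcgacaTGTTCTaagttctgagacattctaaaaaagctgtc

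In the Sgk1 window the 2 facing hexamers ran from base −189 to −175 relative to the start (chr10:21993701-21993715), and another hexamer lay at −242 to −237. In the Tsc22d3 window the hexamer lay at −185 to −180. This stretch lies upstream of the start of 1 Sgk1 transcript and inside introns of longer ones. The whole motif of facing hexamers was found in 3 of 32851 windows of all genes (0.00913%), and 1 of these was this one. Its relaxed form GNACANNNTGTNC, which overlaps the former, was in 1 of the 15 windows of the set and in 0.475% of all windows. The hexamer alone, which the motif of facing hexamers also contains, was in 4 of the 15 windows (26.7%), against 18.97% of all windows. The 4 were 3 of the 6 windows of Sgk1 and 1 of the 3 of Tsc22d3. A match describes letters only, and no binding was measured in these mice.

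Sgk1 (chromosome 10, 21882184 to 21999903, plus strand) was measured at 47.7, 66.8, 49.7, 87.3 and 59.3 CPM in Vehicle and at 46.7, 63.8, 65.7, 60.7 and 57.7 CPM in Control. It was at 56.9, 59.4, 57.4, 61.2 and 57.2 CPM in Pool 1 and at 56.4, 69.4, 71.5, 60.9 and 48.4 CPM in Pool 2. The Pool 1 libraries were the closest to each other and sat inside the range of every other group. The SD was 1.85 CPM in Pool 1 and 15.99 CPM in Vehicle, where replicate 4 was the highest of all 20 libraries. The log2 fold changes were −0.01 in Pool 1 against Control (interval −0.29 to 0.26), 0.06 in Pool 2 against Control (−0.22 to 0.33), −0.08 in Control against Vehicle (−0.35 to 0.20) and 0.07 in Pool 2 against Pool 1 (−0.21 to 0.35).

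Vehicle replicate 4 was also the library with the highest sum of the 5 choroid plexus markers, 8925 CPM, against a median of 225 CPM over all libraries. Across the 20 libraries, with group means removed, Sgk1 and the mean of that list had a Pearson r of 0.56, given as a description. With the mean of the clock genes described below, Sgk1 had an r of larger size, −0.84, also a description. Without Vehicle replicate 4 and Pool 2 replicate 1, Sgk1 in Control against Vehicle had a log2 fold change of 0.077 in place of −0.077. The parts of choroid plexus and of the time of sampling in the Sgk1 level were not tested.

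Tsc22d3 (chromosome X, 140539528 to 140600659, minus strand) was measured at 42.3, 33.2, 35.4, 35.4 and 39.1 CPM in Vehicle and at 48.9, 44.99, 42.0, 35.9 and 34.7 CPM in Control. It was at 32.2, 41.1, 41.5, 38.3 and 44.3 CPM in Pool 1 and at 37.3, 38.6, 35.5, 44.8 and 40.9 CPM in Pool 2. The 2 pools lay on top of each other, with means of 39.5 ± 4.59 and 39.4 ± 3.60 CPM (SD, n = 5). Control was the highest group at 41.3 ± 6.01 CPM and Vehicle the lowest at 37.1 ± 3.61 CPM, and these 2 groups overlapped. The log2 fold change of Control against Vehicle was 0.15 (interval −0.06 to 0.37), and those of Pool 1 and Pool 2 against Control were both −0.07 (intervals −0.28 to 0.15 and −0.28 to 0.14). Between the pools it was −0.0018 (interval −0.21 to 0.21).

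Zbtb16 (chromosome 9, 48654297 to 48836222, minus strand) encodes a zinc finger repressor of transcription that glucocorticoids induce strongly in many cell types. It was measured at 55.2, 51.2, 52.8, 53.7 and 30.5 CPM in Vehicle and at 46.9, 51.2, 46.3, 67.3 and 45.9 CPM in Control. It was at 66.2, 70.3, 64.4, 50.0 and 37.9 CPM in Pool 1 and at 48.2, 60.6, 42.8, 44.7 and 58.0 CPM in Pool 2. In Vehicle and in Control, 4 libraries lay close together and 1 lay apart, low in Vehicle and high in Control. Pool 1 had the highest mean (57.8 ± 13.5 CPM) and also the largest SD, and the log2 fold change against Control was 0.16 (interval −0.19 to 0.52). The other comparisons gave −0.02 for Pool 2 against Control (−0.38 to 0.34), 0.08 for Control against Vehicle (−0.28 to 0.44) and −0.18 for Pool 2 against Pool 1 (−0.54 to 0.17).

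The other 3 genes were present at lower levels. Pdk4 (chromosome 6, 5483351 to 5496309, minus strand) encodes a kinase that shuts down pyruvate dehydrogenase and so spares glucose. It was measured at 12.1, 9.09, 10.8, 12.2 and 9.17 CPM in Vehicle and at 11.8, 8.93, 11.0, 7.95 and 12.1 CPM in Control. It was at 8.82, 11.3, 10.2, 10.1 and 9.84 CPM in Pool 1 and at 14.8, 10.1, 10.4, 7.97 and 11.8 CPM in Pool 2. The highest library was Pool 2 replicate 1, the same one in which Nr3c2 was lowest. The log2 fold change of Pool 2 was 0.09 against Control (interval −0.21 to 0.39) and 0.13 against Pool 1 (−0.17 to 0.44), and without that library the 2 values were −0.038 and 0.0027. Pool 1 against Control gave −0.04 (−0.35 to 0.26) and Control against Vehicle −0.05 (−0.35 to 0.26).

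Across libraries, with group means removed, Pdk4 had a Pearson r of −0.78 with the mean of the 5 thalamus markers and 0.60 with the mean of the 5 CA1 pyramidal markers. Both are descriptions over 20 libraries that share their depth and dissection. Without Pool 2 replicate 1 they were −0.70 and 0.57. With the mean of the blood markers r was 0.64, and with that of the microglial markers 0.47. Without that library these 2 were 0.48 and 0.09, also as descriptions. The parts of regional tissue, blood and microglia in the Pdk4 level were not tested.

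Cdkn1a (chromosome 17, 29090976 to 29100727, plus strand) encodes an inhibitor of cyclin-dependent kinases that stops the cell cycle. It was measured at 7.75, 7.14, 6.22, 6.23 and 4.33 CPM in Vehicle and at 6.80, 6.51, 5.75, 5.45 and 3.94 CPM in Control. It was at 4.77, 4.98, 6.31, 3.88 and 5.90 CPM in Pool 1 and at 7.18, 7.09, 6.88, 6.68 and 4.25 CPM in Pool 2. In Pool 2, 4 of 5 libraries lay above every Pool 1 library, and the fifth lay among them. Pool 2 against Pool 1 gave the largest log2 fold change of Cdkn1a, 0.31 ± 0.18 (SE, interval −0.06 to 0.69). Its p-value was 0.0972 unadjusted and 0.682 adjusted in edgeR (Benjamini-Hochberg), and 0.135 in the exact permutation test. Against Control the log2 fold changes were −0.14 in Pool 1 (interval −0.52 to 0.24) and 0.17 in Pool 2 (−0.20 to 0.55), and Control against Vehicle gave −0.16 (−0.53 to 0.22).

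Hif3a (chromosome 7, 17031507 to 17062427, minus strand) encodes a subunit of the hypoxia-inducible factors that can damp the response to low oxygen. It had the lowest level of the set, 3.68 CPM and 0.549 CPM per kilobase, and the widest spread. It was measured at 2.44, 2.64, 4.16, 1.71 and 2.51 CPM in Vehicle and at 2.37, 3.17, 4.00, 4.21 and 3.14 CPM in Control. It was at 3.24, 8.29, 5.82, 2.97 and 2.53 CPM in Pool 1 and at 4.34, 5.61, 3.17, 3.34 and 4.00 CPM in Pool 2. The group means were in the order Vehicle (2.69 ± 0.896 CPM), Control (3.38 ± 0.743), Pool 2 (4.09 ± 0.974) and Pool 1 (4.57 ± 2.45), with neighbours closer than the larger of their SDs. In Pool 1, 2 libraries lay above every Control library and the other 3 lay in the range of Control.

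Pool 1 against Control gave the largest log2 fold change of the 36, 0.43 ± 0.28 (SE), with an interval of −0.15 to 1.02. The p-value was 0.142 unadjusted and 0.919 adjusted in edgeR (Benjamini-Hochberg), and 0.389 in the exact permutation test. Without Pool 1 replicate 2 the log2 fold change was 0.10. Pool 2 against Control gave 0.27 (interval −0.31 to 0.86), Control against Vehicle 0.33 (−0.27 to 0.92) and Pool 2 against Pool 1 −0.16 (−0.74 to 0.42). For any difference among the 4 groups, Hif3a had the smallest p-value of the set, 0.0727 unadjusted and 0.684 adjusted (edgeR, Benjamini-Hochberg), and Nr3c2 followed with 0.142 unadjusted.

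The levels of the set span a wide range when compared per kilobase of exon. After Nr3c2 and Nr3c1 came Sgk1 (12.3 CPM per kilobase), Zbtb16 (9.88), Tsc22d3 (9.06) and Fkbp5 (6.40), and then Pdk4 (3.00), Cdkn1a (1.66) and Hif3a (0.549). Over the 20 libraries Nr3c1 and Sgk1 had SDs of 1.53 and 1.91 CPM per kilobase, so that these neighbours were not apart by more than their spread, and nor were Zbtb16 and Tsc22d3, whereas Nr3c2 was at 26.6 CPM per kilobase or more in every library and Nr3c1 at 16.7 or less. The exon lengths join all transcripts of a gene, and transcripts in use may be shorter.

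The spread within a group also differed from gene to gene. The coefficient of variation within groups was 11.2% for Fkbp5, 11.6% for Tsc22d3, 11.8% for Nr3c1 and 13.2% for Nr3c2. It was 16.7% for Sgk1, 17.0% for Pdk4, 19.6% for Cdkn1a, 19.9% for Zbtb16 and 39.1% for Hif3a. Counting error alone gives 1.31% for Nr3c2 and 10.8% for Hif3a, so in each gene the libraries differed by more than sampling of reads. Between the lowest and the highest of the 20 libraries the fold was 1.47 for Nr3c1 and 4.85 for Hif3a.

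Whether the genes varied together from library to library, apart from the treatment, was examined in log2 CPM after subtracting each group's mean. Of the 36 pairs of genes, 0 passed an adjusted p-value of 0.05 in the within-group permutation test (Benjamini-Hochberg over 36 pairs, smallest adjusted value 0.429 for Pearson and 0.370 for Spearman). At an unadjusted permutation p-value under 0.05, 2 pairs of the 36 passed by Pearson's r over the 20 libraries and 3 by Spearman's rho. Fkbp5 and Zbtb16 had r = 0.52 (p = 0.0262) and a Spearman rho of 0.52 (p = 0.0455), and without the 2 libraries farthest from the median of Fkbp5 r was 0.47. Nr3c1 and Nr3c2 had r = 0.49 (p = 0.0468) and a rho of 0.54 (p = 0.0292), and r = 0.52 without the 2 farthest libraries. The pair that passed by rho alone was Nr3c2 and Hif3a, with a rho of 0.50 (permutation p = 0.0325) and r = 0.41 (permutation p = 0.0638), and r was 0.56 without the 2 farthest libraries.

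Zbtb16 and Hif3a had the highest r of all pairs, 0.53, with a permutation p-value of 0.0510 and a rho of 0.50 (p = 0.0542). Within single groups of 5 libraries, the r of Fkbp5 and Zbtb16 was 0.48 in Vehicle, 0.0050 in Control, 0.89 in Pool 1 and 0.50 in Pool 2. The 3 genes most used as readouts of the receptor, Fkbp5, Sgk1 and Tsc22d3, held none of the 9 pairs with an absolute r of at least 0.4 among themselves.

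**Figure D3:**
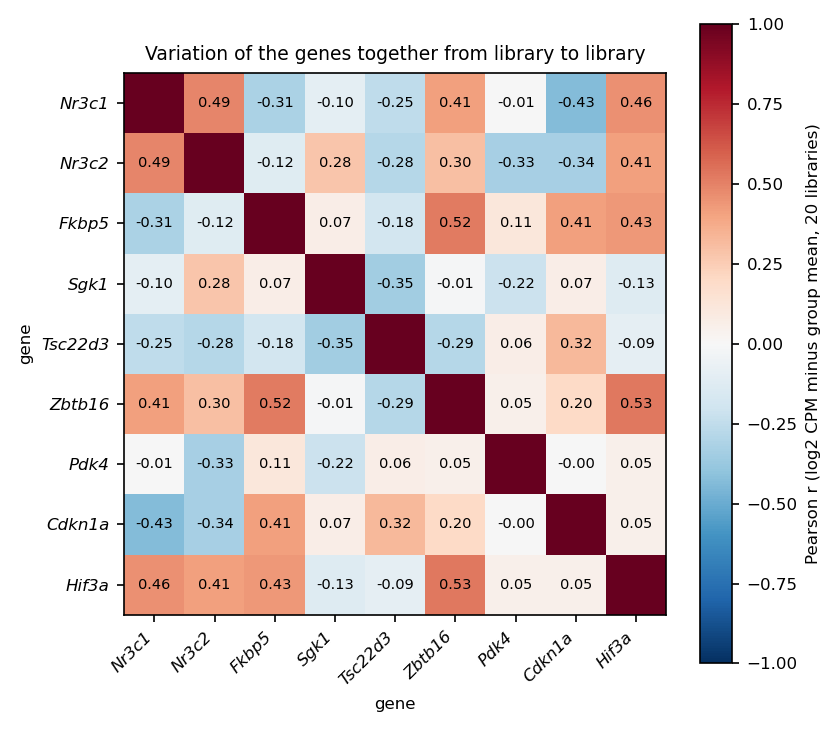
Pearson r between the 9 genes over 20 libraries, from log2 CPM minus the group mean, with red for positive and blue for negative values and r printed in each cell. The strongest cells are Zbtb16 with Hif3a (0.53), Fkbp5 with Zbtb16 (0.52) and Nr3c1 with Nr3c2 (0.49), and no pair passed an adjusted p-value of 0.05.

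For each gene, the 3 genes with the most similar course over the 20 libraries, by Pearson's r of log2 CPM minus the group mean, were taken from 14797 genes with a mean of at least 1 CPM. As descriptions, they were Necab1 (0.90), Arhgap32 and Lrrc4c for Nr3c1, Slitrk5 (0.87), Herc3 and Fbxl17 for Nr3c2, and Gm43597 (0.89), Zmynd8 and Mfhas1 for Fkbp5. They were Prss35 (0.78), 1600012H06Rik and Tgfb2 for Sgk1, Nrsn2 (0.86), March11 and Shb for Tsc22d3, and Map3k13 (0.90), Trio and Chd6 for Zbtb16. They were Plekhf2 (0.84), Gins2 and Fam107a for Pdk4, Klhl18 (0.86), Furin and Ralgds for Cdkn1a, and Iffo2 (0.81), Elk4 and Dis3 for Hif3a. No gene of the set was among the 3 most similar to another. The closest was Zbtb16 to Fkbp5, with 415 genes more similar.

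Other genes of the pathway were described from 4 lists of 52 genes in all. Of 11 receptor chaperones and partners, such as Hsp90aa1 and Fkbp4, which hold the receptor ready for hormone, 0 were called in the 4 pairwise comparisons by edgeR or DESeq2. By unadjusted p-value under 0.05 in edgeR, 2 of the 11 passed in Pool 1 against Control (5.22% of all genes) and 1 in Pool 2 against Control (7.7% of all genes). The median log2 fold change was −0.10 in Pool 1 against Control, with 0 of 11 above 0, and −0.12 in Pool 2 against Control, with 1 of 11 above 0, beside medians of −0.005 and 0.003 over all genes. In Control against Vehicle it was 0.05, with 8 of 11 above 0, and the Control libraries are common to these comparisons. For any difference among the 4 groups, 1 of the 11 passed at an unadjusted p-value under 0.05 in edgeR (7.86% of all genes passed), with all libraries and without Pool 2 replicate 1, and 2 passed in DESeq2. That gene was Hsp90b1, the HSP90 chaperone of the endoplasmic reticulum (edgeR, unadjusted p = 0.004997, adjusted p = 0.444 by Benjamini-Hochberg). Its log2 fold change in Pool 1 against Control was −0.27 (edgeR, unadjusted p = 0.00364, adjusted p = 0.917), a size under the threshold of 0.3.

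Of 8 receptor coregulators, which the bound receptor recruits to chromatin, 0 were called in the 4 pairwise comparisons by edgeR or DESeq2, and 0 had an unadjusted p-value under 0.05 in edgeR, either in these or for any difference among the 4 groups. Their median log2 fold changes were 0.06 in Pool 1 against Control, −0.05 in Pool 2 against Control, −0.06 in Control against Vehicle and −0.09 in Pool 2 against Pool 1.

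Of 8 genes of steroid supply and CRH signalling, 1 was called, in Pool 2 against Control, where 6.22% of all genes were called. It was Abcb1a, an efflux pump of the blood vessel wall that limits the entry of some corticosteroids into the brain. Abcb1a was measured at 28.4, 23.7, 13.3, 25.6 and 29.6 CPM in Control and at 37.8, 29.4, 25.1, 30.01 and 33.5 CPM in Pool 2, and the groups overlapped. It rose by a log2 fold change of 0.37 ± 0.17 (SE), with a p-value of 0.0392 unadjusted and 0.624 adjusted (edgeR, Benjamini-Hochberg). Without Pool 2 replicate 1 it was no longer called (log2 fold change 0.29, edgeR unadjusted p = 0.111). Crh, which encodes a releasing hormone, was then called lower in Pool 2 against Control (−0.64, edgeR unadjusted p = 0.0256), against −0.33 with all libraries. Without that library these Crh values rest on 16 to 42 counts per library of hippocampal tissue. The endothelial markers Tek and Pecam1, 2 of the 7 in that list, were also called higher in Pool 2 against Control, of which 1, Pecam1, was called without Pool 2 replicate 1, and the sum of the 7 was 214.8 to 303 CPM in Pool 2 and 130.4 to 248 CPM in Control. Its part in the Abcb1a value was not tested.

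Of 25 other glucocorticoid-responsive genes, 0 were called in Control against Vehicle and 0 in Pool 1 against Control by edgeR, with 1 and 0 at an unadjusted p-value under 0.05. DESeq2 called 0 and 1, the latter being Lcn2. In Pool 2 against Control edgeR called 1, Lcn2, where 6.22% of all genes were called. In Pool 2 against Pool 1, where 6.82% were called, it called 3, which were Lcn2, Mt1 and Angptl4, all higher in Pool 2. By unadjusted p-value under 0.05 alone, edgeR passed 2 of the 25 in Pool 2 against Control (7.7% of all genes) and 7 of the 25 in Pool 2 against Pool 1 (8.52% of all genes), and these counts were 1 and 2 without Pool 2 replicate 1. For any difference among the 4 groups 5 of the 25 passed (7.86% of all genes), which were Lcn2, Angptl4, Nfkbia, Sdc4 and Ddit4, and without Pool 2 replicate 1 the 2 that passed were Angptl4 and Ddit4. Widely used readouts on the list, such as Per1, Dusp1 and Klf9, were not called in the 4 pairwise comparisons. The median log2 fold change of the 25 was −0.04 in Pool 1 against Control, 0.03 in Pool 2 against Control, 0.10 in Control against Vehicle and 0.10 in Pool 2 against Pool 1. Over all genes these medians were −0.005, 0.003, −0.01 and 0.02.

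Lcn2 encodes a secreted protein that binds iron carriers and rises in inflammation. Its counts were 8, 35, 2, 2 and 13 in Vehicle, 4, 72, 5, 3 and 4 in Control, 1, 0, 0, 2 and 2 in Pool 1, and 444, 75, 27, 1 and 3 in Pool 2. All Pool 1 libraries were at or under the floor of 3 counts, so a fitted fold change against Pool 1 depends on the prior count and is not given. Pool 2 replicate 1 held most of the counts of its group, and it was the library with the highest interferon-response sum. In Pool 2 against Control the log2 fold change was 2.74 (edgeR, unadjusted p = 0.0365, adjusted p = 0.613 by Benjamini-Hochberg), and without that library it was 0.55 (unadjusted p = 0.5999). In Pool 2 against Pool 1 Lcn2 stayed called without that library (edgeR, unadjusted p = 0.00855, adjusted p = 0.671). With all libraries DESeq2 gave adjusted p-values of 0.0025 in Pool 2 against Pool 1 and 0.024 for any difference among the 4 groups. In edgeR these were 0.266 and 0.428.

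Angptl4, an inhibitor of lipoprotein lipase, was measured at 1.01, 1.08, 1.12, 1.12 and 1.04 CPM in Pool 1 and at 1.32, 2.14, 1.54, 1.502 and 1.59 CPM in Pool 2. The 2 groups did not overlap, a pattern seen in 1.41% of all genes in this comparison. These values rest on 23 to 55 counts per library. The log2 fold change was 0.60 ± 0.25 (SE), with a p-value of 0.0243 unadjusted and 0.496 adjusted (edgeR, Benjamini-Hochberg), and 0.66 without Pool 2 replicate 1. Without that library Angptl4 was also called in Pool 2 against Control (0.55, edgeR unadjusted p = 0.0428), where it had 0.49 with all libraries (edgeR unadjusted p = 0.0596). Mt1, a metal-binding metallothionein, was at 101, 121, 119, 126 and 134 CPM in Pool 1 and at 229, 119, 165, 122 and 144 CPM in Pool 2. Its log2 fold change of 0.37 (edgeR, unadjusted p = 0.0406, adjusted p = 0.559 by Benjamini-Hochberg) fell to 0.19 and was no longer called without Pool 2 replicate 1, its highest library.

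**Figure D4:**
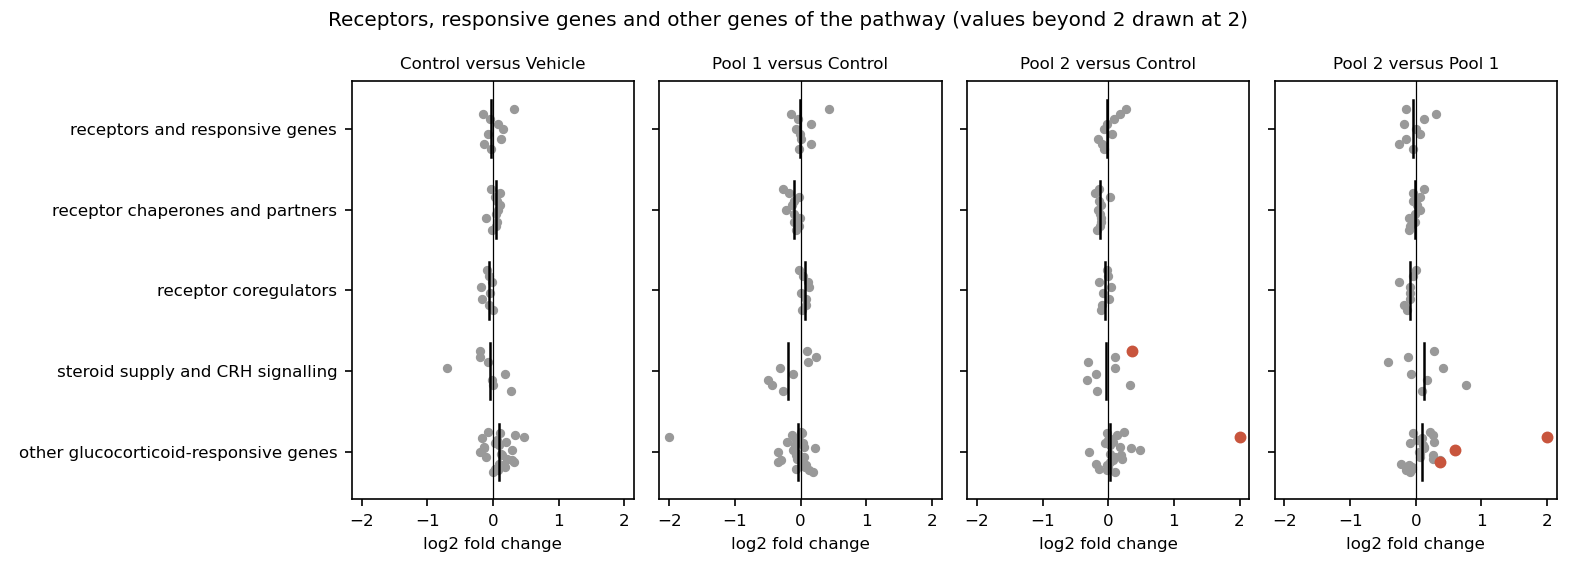
Log2 fold change (x axis) of the 9 genes and of the 4 lists of other pathway genes in the 4 comparisons, with 1 point per gene, red points for called genes and black bars for the median of the list. The red points are Abcb1a and Lcn2 in Pool 2 versus Control and Lcn2, Mt1 and Angptl4 in Pool 2 versus Pool 1, and Lcn2 is drawn at the edge of the axis in 3 comparisons.

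As a check of the time of sampling, which moves hormone levels, 8 clock genes such as Dbp, Per2 and Nr1d1 were read in the same fit. By edgeR 0 of the 8 were called in the 4 pairwise comparisons, with 0 at an unadjusted p-value under 0.05 and 0 by DESeq2. Their summed level ranged from 355 to 463 CPM over the 20 libraries. Their median log2 fold change was 0.10 in Control against Vehicle, with 8 of 8 above 0, beside −0.01 over all genes. It was 0.05 in Pool 1 against Control and 0.04 in Pool 2 against Control, each with 5 of 8 above 0. In Pool 2 against Pool 1 it was 0.001, with 4 of 8 above 0. From library to library, with group means removed, Sgk1 had a Pearson r of −0.84 with the mean of the clock genes. It was −0.84 without Pool 2 replicate 1 too. The other genes of the set lay between −0.32 (Nr3c2) and 0.36 (Tsc22d3). These are descriptions, and a part of sampling time in them was not tested. The tissue label was also checked. All 5 markers of CA1 pyramidal neurons, all 5 of CA2 and CA3 and all 5 of dentate granule cells were above the floor in every library, with sums of 416 to 1100, 268 to 604 and 270.3 to 802.5 CPM. Markers of fields beyond CA1 were thus present, together with oligodendrocyte markers at 2559 to 8188 CPM. The level of hormone in these mice was not analysed here.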

How the data were processed

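Bulk RNA of 20 mouse hippocampus libraries was measured, 5 in each of the groups given by the sample labels. The authors prepared stranded poly(A) libraries, sequenced 50 nt single-end reads, checked them with FastQC 0.11.5 (the submitters' processing notes), aligned them to GRCm38 (mm10) with STAR, and deposited raw counts per gene, without normalization and without genes whose counts summed to under 10. Which strand column of the counts was kept is not given in the sources used here, so reads of Nr3c2 and its antisense neighbour Gm10649 (2432 counts over all libraries) may not be fully separated. Gene positions and exon lengths were taken from the GENCODE M21 annotation.

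Counts were scaled by TMM and tested with edgeR 4.0.16 in R 4.3.3 (robust glmQLFit and glmQLFTest), in 1 fit of 4 groups over all 25190 genes, with Benjamini-Hochberg adjustment. CPM used TMM library sizes, and log2 CPM a prior count of 2. DESeq2 1.42.0, another scaling, filters, the default spread, 2-group fits, a replicate block and leaving out each library were alternatives. Exact permutation tests were two-sided, and correlations used 100000 permutations within groups. The edgeR and DESeq2 fits were tested on simulated data with 200 changed genes of 25190. In the simulated Pool 2 against Control, the fitted log2 fold changes of these genes had a median size of 2.0. There edgeR recovered 198 of the 200 at an adjusted p-value under 0.05. Recovery of changes as small as those of the members was not tested.

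Totals ran from 20588280 to 25543939 counts per library, so that 3 counts, taken as the floor, equal 0.117 to 0.146 CPM. Counts carry no molecular identifiers, and counting error is only a part of the spread. No library of a group repeated another: the chi-square of their counts was 7.59 to 60.8 per degree of freedom.

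The members and all lists were chosen with earlier results of these data known. Named were all 9 members, the pathway genes called in a comparison, and for each member the 3 genes with the most similar course. Per1, Dusp1, Klf9, Crh, Hsp90b1, Nfkbia, Sdc4 and Ddit4, single list genes given as examples, and marker genes were named after their values were seen. The protein, behavioural and human data were not analysed here.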

Additional observations from a re-analysis of the deposited data

Results flagged for a closer look

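In each of the 9 genes and 4 groups, the highest and the lowest of the 5 libraries were compared with the rest by Dixon's ratio, and 3 of the 36 groups held a library that lay far from the others. Chance alone flags about 1 in 20 groups. Zbtb16 was at 30.5 CPM in Vehicle replicate 5, the lowest of its group, where the other 4 libraries lay between 51.2 and 55.2 CPM. Zbtb16 was at 67.3 CPM in Control replicate 4, the highest of its group, where the others lay between 45.9 and 51.2 CPM. Cdkn1a was at 4.25 CPM in Pool 2 replicate 5, the lowest of its group, where the others lay between 6.68 and 7.18 CPM. Without that library, Cdkn1a was called higher in Pool 2 than in Pool 1, with a log2 fold change of 0.43 (edgeR, unadjusted p = 0.0231).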

How the results depend on the processing

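Of 648 values of the members' log2 fold changes under the alternatives, 600 kept their sign and stayed uncalled, 45 changed sign (none with a size over 0.17) and 3 became called, all with 1 library left out. The smallest adjusted p-value of a member over the alternatives was 0.362 (Benjamini-Hochberg, in edgeR or DESeq2). Without Pool 1 replicate 5, Hif3a was called in Pool 1 against Control (0.58, edgeR unadjusted p = 0.0464), and without Pool 2 replicate 5, Nr3c2 (−0.32, unadjusted p = 0.0148) and Cdkn1a (0.43) were called in Pool 2 against Pool 1. In these 2 settings and comparisons, 1045 and 1937 of all 25190 genes were called. The number of members called with 1 library left out therefore ranged from 0 to 1 in Pool 1 against Control and from 0 to 2 in Pool 2 against Pool 1, and was 0 in Control against Vehicle and in Pool 2 against Control. For any difference among the 4 groups it ranged from 0 to 1, with Nr3c2 past 0.05 without Vehicle replicate 1 and Hif3a without Vehicle replicate 3 or Pool 1 replicate 1, 4 or 5. In those settings 1758 to 2272 of all 25190 genes passed. Of the pathway genes, 0 were called in Pool 1 against Control in edgeR and 1, Lcn2, with DESeq2, and 2, Lcn2 and Mt1 (−0.34, edgeR unadjusted p = 0.022), were called lower without Vehicle replicate 4 and Pool 2 replicate 1 together, a setting chosen for these genes after seeing the data. The cause of these changes was not tested.

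With the replicate number as a block, 1 member, Nr3c2, had an unadjusted p-value under 0.05 for any difference among the groups in edgeR, against 0 without it. With that block, 1552 of all 25190 genes had such a p-value. The labels do not say what the replicate numbers stand for. Of 30 pairs of libraries with the same number, 12 had a correlation of their deviations over 0.1 (−0.381 to 0.301). The median was 0.0185 for these 30 pairs and −0.009 for the other pairs. Of 20 libraries, 2 correlated best with their own number. Whether libraries of the same number were handled together was not tested.

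Values near 0 changed sign. With all but the groups compared left out, Sgk1 in Pool 1 against Control was 0.0027, and with a filter at a mean normalized count of 10, Tsc22d3 in Pool 2 against Pool 1 was 0.0008. Without Vehicle replicate 4 and Pool 2 replicate 1 together, Pdk4 was −0.038 in Pool 2 against Control and 0.0069 in Control against Vehicle, Sgk1 was 0.077 in Control against Vehicle, and Tsc22d3 was 0.017 in Pool 2 against Pool 1. With 1 library left out, the log2 fold changes in Control against Vehicle ranged from −0.11 to 0.031 for Nr3c1, from −0.11 to 0.044 for Pdk4, from −0.15 to 0.077 for Sgk1 and from −0.046 to 0.14 for Zbtb16. In Pool 1 against Control they ranged from −0.055 to 0.068 for Fkbp5, from −0.081 to 0.059 for Nr3c1, from −0.13 to 0.022 for Pdk4, from −0.086 to 0.029 for Sgk1 and from −0.12 to 0.0024 for Tsc22d3. In Pool 2 against Control they ranged from −0.12 to 0.015 for Nr3c1, from −0.038 to 0.19 for Pdk4, from −0.015 to 0.13 for Sgk1, from −0.13 to 0.0005 for Tsc22d3 and from −0.090 to 0.083 for Zbtb16. In Pool 2 against Pool 1 they ranged from −0.31 to 0.17 for Hif3a and from −0.067 to 0.043 for Tsc22d3. The 9 correlations with an absolute r of at least 0.4 kept their sign in every alternative run, the smallest size being 0.24.

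With 5 libraries a group, a log2 fold change under 0.2 could not be told from 0 for any member. Hif3a, with 39 to 185 counts per library, had the largest counting error (10.8%), below its spread within groups (39.1%).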
